A study of Mus musculus with 30 samples.

Results

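The clustered protocadherins are cell surface proteins of the cadherin superfamily, encoded in 3 neighbouring gene arrays, alpha, beta and gamma, on mouse chromosome 18. The genes described here were the protein-coding features of the adult count table whose symbol begins with Pcdha, Pcdhb or Pcdhg, which gave 57 of 55566 features, namely 14 alpha, 22 beta and 21 gamma. Pcdha11 stands in that table under 2 gene identifiers, so the 14 alpha features carry 13 symbols. The authors' deposited table for postnatal day 8 held 46 of the 57 among 15145 genes, and that for day 10 held 43 among 14846.

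In neurons, each cell transcribes a small choice of these genes, and the proteins they encode pair with identical proteins on neighbouring cells, which lets a nerve cell recognise its own branches. Every alpha or gamma protein joins its own large variable exon to constant exons shared within the array, whereas each beta gene is a single exon. CTCF, cohesin and DNA methylation at the promoters are known to control which genes are used, and the C-type genes (Pcdhac1, Pcdhac2, Pcdhgc3, Pcdhgc4 and Pcdhgc5) follow rules of their own. Their function in testis is little described.

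Total RNA and ribosome footprints, the stretches of mRNA shielded by translating ribosomes, were measured in whole testis of juvenile mice, and total RNA in testis of adult mice, all labelled C57BL/6J. At postnatal day 8, 3 Ythdc2 -/- mice were compared with 3 Ythdc2 +/+ mice. At day 10, 3 Ythdc2 -/- mice were compared with a joint control of 2 Ythdc2 +/- mice and 1 Ythdc2 +/+ mouse, and at both ages footprints and RNA came from the same animals. In adults of 20 or 24 weeks, 3 Ythdc2 WLA/WLA mice were compared with 3 Ythdc2 WLA/+ mice, so that the adult controls carried the WLA allele too. YTHDC2 is an RNA helicase that mouse germ cells need to progress through meiosis. The labels name no Cre or tissue-specific deletion and no number of founder lines.

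The arrays lie on the chromosome of the mutated gene. On the GRCm38.p6 assembly, the same as mm10, the alpha genes run from position 36930285 to 37188897 of chromosome 18, the beta genes from 37264998 to 37521419 and the gamma genes from 37661775 to 37841873. The end of each array lies 7.64, 7.31 and 6.99 Mb before the start of Ythdc2, which spans 44827730 to 44889720. Taf7, a general transcription factor subunit, and Slc25a2, a mitochondrial carrier, lie between the beta and gamma arrays, and Diaph1, an actin-nucleating formin, follows the gamma array.

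The 6 adult libraries held 33331987 to 43707798 reads. Ythdc2 itself stood at 33.3 ± 3.03 CPM (reads scaled to library size, SD, n = 3) in heterozygous and 34.1 ± 1.54 (SD, n = 3) in homozygous mice, with an adjusted p of 0.883 by edgeR's quasi-likelihood test. A WLA allele need not lower the RNA, so this level checks no genotype, and the juvenile level of Ythdc2 is not reported here. Testis was recognisable by 6 spermatid markers, which together took 8823 to 10687 CPM in the adult libraries, beside 4823 to 5233 CPM for 6 spermatocyte markers. In such bulk samples, fewer cells of a type and less RNA per cell cannot be told apart.

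In adult testis the clustered protocadherins were expressed at a low level, unevenly, and without a detected difference between the genotypes. All 57 together took 1812 to 2466 reads per library, or 53.1 to 57.5 CPM. Scaled CPM summed over all members averaged 56.1 ± 1.21 (SD, n = 3) in heterozygotes and 55.0 ± 2.08 (SD, n = 3) in homozygotes. Of their reads, 39.6% fell on the alpha, 16.3% on the beta and 44.1% on the gamma array. These are shares of reads and not levels per length. The counting program is not given in the sources used here, and reads from the constant exons of the alpha and gamma arrays could be split between genes or dropped, so single alpha and gamma genes are uncertain in a way that the single-exon beta genes are not.

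A few genes carried most of these reads. Of 12833 reads over the 6 libraries, 8279, or 64.5%, fell on Pcdha2, Pcdhga12, Pcdhgc5, Pcdhgb2 and Pcdhb1. Pcdha2 alone held 72.8% of the alpha reads. It had 649, 662 and 583 reads in the 3 heterozygous and 680, 503 and 627 in the 3 homozygous libraries, so that the groups overlapped throughout. At the other end 32 members had between 0 and 55 reads over all 6 libraries and did not pass the filter on low counts, which left 25 tested: 4 alpha, 8 beta and 13 gamma. Pcdhga10 had no read among 230975149, which allows a level of up to 0.0130 CPM (3 reads over the 6 libraries, counting error only).

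Beta genes can be ranked per length, since their length is that of the single exon. Pcdhb1, the first gene of the array, stood highest at 1.10 ± 0.147 CPM per kb (SD, n = 3) in heterozygotes and 1.26 ± 0.126 (SD, n = 3) in homozygotes. Pcdhb3 followed at 0.583 ± 0.108 and 0.588 ± 0.102 CPM per kb, also from 3 libraries each, well apart from Pcdhb1. Pcdhb20 was next in the 3 heterozygous libraries at 0.178 ± 0.00305 CPM per kb. It was followed by Pcdhb12 at 0.142 ± 0.0265, Pcdhb4 at 0.128 ± 0.0456 and Pcdhb22 at 0.125 ± 0.0211, which lay within their spread of each other. In the 3 homozygous libraries Pcdhb20 at 0.172 ± 0.0217 and Pcdhb4 at 0.152 ± 0.0295 CPM per kb lay within their spread, followed by Pcdhb22 at 0.143 ± 0.0155. Pcdhb17 at 0.114 ± 0.0606 and Pcdhb14 at 0.0950 ± 0.0241 also stood above Pcdhb12 there, at 0.0827 ± 0.0352. Pcdhb10, with 1 read over the 6 libraries, was the lowest beta gene, and Pcdhb6 had 5 reads, all in heterozygous libraries.

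Among the gamma genes the most read was Pcdhga12, with 280, 342 and 229 reads in heterozygous and 275, 215 and 292 in homozygous libraries. The C-type gene Pcdhgc5 came next with 177, 285 and 219 against 211, 162 and 174 reads, and the C-type gene Pcdhgc3 had 68, 48 and 33 against 76, 58 and 46. The other 3 C-type genes were far sparser, with 26 reads for Pcdhac1, 27 for Pcdhac2 and 21 for Pcdhgc4 over the 6 libraries. Read numbers of the C-type genes thus ranged widely in adult testis. Markers of neurons and Schwann cells, of which 7 of 10 passed the filter, summed to 164 to 173 CPM in heterozygous and 164 to 169 CPM in homozygous libraries. Those of Leydig cells summed to 310 to 482 and 488 to 559 CPM, with 8 of 8 above 0 in log2 fold change. So were 11 of 12 Sertoli markers, 9 of 10 of peritubular and interstitial fibroblasts and 3 of 7 of macrophages, beside 51.5% of all features tested. Of all these markers 0 were called by edgeR, beside 0.236% of all features tested. The part of these cell types in the levels of the protocadherins was not tested.

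**Figure D1:**
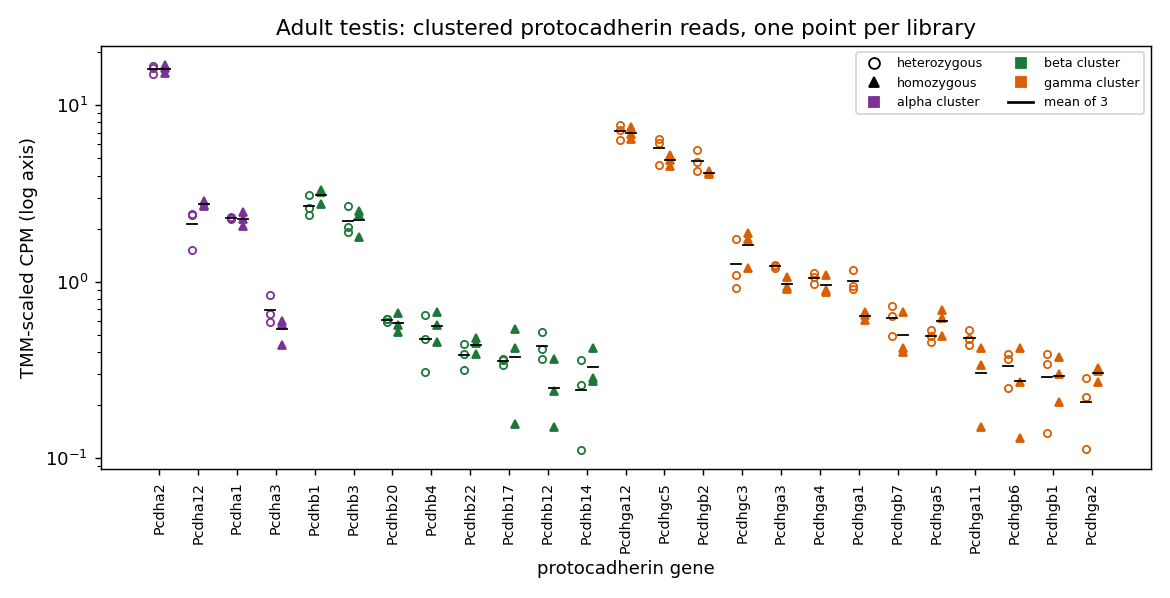
TMM-scaled CPM (log axis) of the 25 clustered protocadherins that passed the filter in adult testis, ordered by level within each array; each point is 1 library, open circles are heterozygous, filled triangles homozygous, and black lines are means of 3. Pcdha2 stands above every other gene, and the symbols of the genotypes overlap for most genes.

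None of the 25 tested members passed an adjusted p of 0.05 between the adult genotypes by edgeR, where 53 of 22446 features, or 0.236%, did. DESeq2 also called 0 members, where it called 218 of 22446 features. It left some members without an adjusted p, Pcdhga1 and Pcdhb12 among them, so those could not be called. At an unadjusted p under 0.05 edgeR had 3 of the 25 members, Pcdhga1, Pcdhb12 and Pcdha12, beside 2954 of all 22446 features tested. DESeq2 had 0 members under that p. The median log2 fold change of the 25 was -0.02, beside 0.01 over all features tested. The groups of 3 libraries did not overlap for 6 of the 25 members, beside 19.3% of all features tested.

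Those 6 were Pcdha12, higher in homozygotes, and Pcdhb12, Pcdhga1, Pcdhga3, Pcdhga11 and Pcdhgb2, lower. Pcdhga1 had 45, 40 and 34 reads in heterozygous and 26, 20 and 26 in homozygous libraries. Every homozygous library was therefore below every heterozygous one, and the log2 fold change was -0.64 ± 0.21 (SE, n = 3 against 3), with an edgeR adjusted p of 0.239. Pcdha12 had 94, 67 and 86 against 110, 95 and 104 reads, with the second heterozygous library lowest. Its log2 fold change was 0.40 ± 0.18 (SE), with an edgeR adjusted p of 0.367, and without that library it was 0.20, with an edgeR adjusted p of 0.660. Pcdhb12 had 16, 23 and 13 against 6, 8 and 14 reads, a log2 fold change of -0.79 ± 0.35 (SE) with an edgeR adjusted p of 0.365. Its reads overlapped between the groups. Once scaled for library size the groups were apart by a hair, with 0.36234 CPM in the lowest heterozygous and 0.36223 in the highest homozygous library. With 1 library left out the log2 fold change of Pcdhb12 ranged from -1.17, without the third homozygous library, to -0.50, without the first.

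Depth and the scatter between libraries set how small a difference could be seen. The interval of 95% around the log2 fold change was narrowest for Pcdha2, from -0.15 to 0.18 around 0.01. The widest, 0.89 to either side, was that of Pcdhgb6, with 70 reads. Its log2 fold change of -0.25 had an interval from -1.14 to 0.64. Pcdhga2, the sparsest member past the filter with 58 reads, had an interval from -0.26 to 1.41 around 0.57. The authors' deposited table gave an adjusted p to 9 members in adults, of which the smallest was 0.535, for Pcdha12.

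Summed over each array, which does not depend on how reads are split between its genes, the genotypes overlapped in all 3 arrays, in gamma by a single library. Gamma genes together took 25.3, 27.0 and 24.0 CPM in heterozygous and 24.1, 23.0 and 22.8 CPM in homozygous libraries, so that only the first homozygous library reached the range of the heterozygous ones. The means were 25.5 ± 1.54 and 23.3 ± 0.715 CPM (SD, n = 3 each), a log2 ratio of -0.13. Alpha genes stood at 21.8 ± 1.52 and 22.4 ± 0.695 CPM and beta genes at 8.89 ± 0.398 and 9.26 ± 1.10 CPM (SD, n = 3 each).

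**Figure D2:**
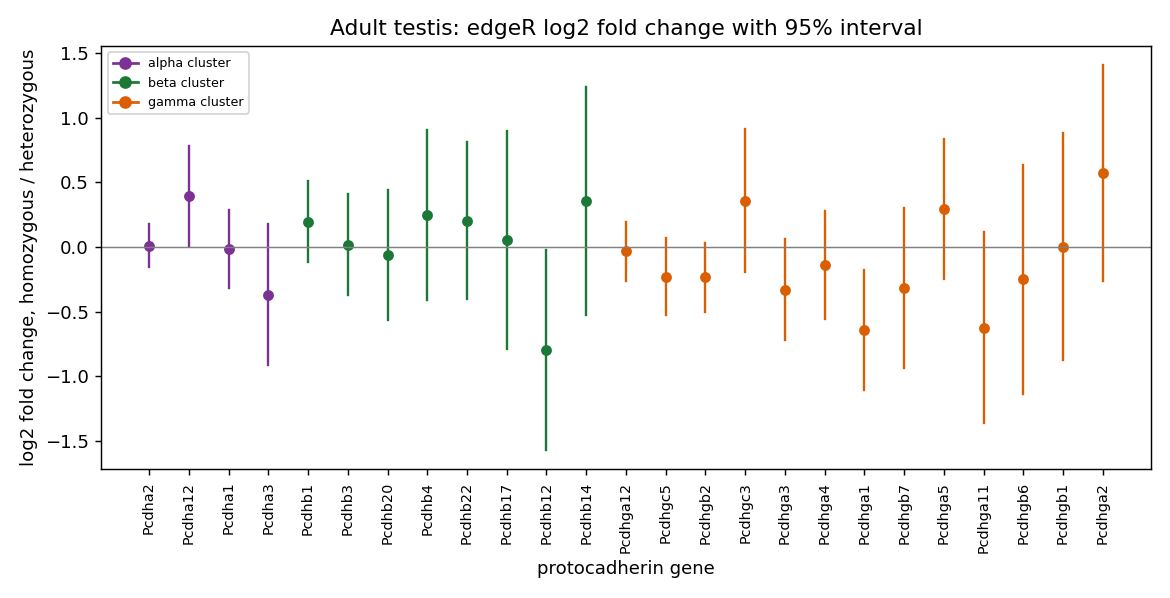
log2 fold change of homozygous against heterozygous adult testis by edgeR for the 25 tested members; points are estimates, bars the 95% interval and the grey line no difference. Pcdhga1 at -0.64 and Pcdhb12 at -0.79 lie lowest, and neither passes an adjusted p of 0.05.

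The juvenile tables held a different selection of the arrays. All 21 gamma genes and 21 of 22 beta genes had a value at both ages, computed from the authors' deposited table. Of the 14 alpha features, 4 had one at day 8 (Pcdha4, Pcdha5, Pcdha11 and Pcdhac2), and Pcdhac2 was the only one at day 10 in the authors' deposited table. Pcdha2 and Pcdhb1, the most read alpha and beta genes of the adult, had no juvenile value. Of the 25 members that passed the adult filter 20 had a day 8 value in the authors' deposited table, as had 26 of the 32 that did not.

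Those tables give effects of knockout against control from anota2seq, a method for translational control, with adjusted p-values and no values per animal. The base of the effects is not stated and is read here as log2. They may have been shrunk, so they are not plain folds, and neither the depth nor the spread between animals is known. A translation effect is the change in footprints that total RNA does not account for, and a buffering effect the change in total RNA that footprints do not follow.

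At day 8 a single member, Pcdhgb6, fell in total RNA in the knockout, while the other 45 did not pass the threshold. Its effect in the authors' deposited table was -0.71 with an anota2seq adjusted p of 0.0428, the second lowest of 15145 genes, of which 8, or 0.0528%, passed 0.05. The authors' deposited table nevertheless puts Pcdhgb6 in its background class. Pcdhga11 stood at -0.29 with an anota2seq adjusted p of 0.0758, the eighth lowest effect in the authors' deposited table. The highest member in the authors' deposited table was Pcdhga4 at 0.35, with an anota2seq adjusted p of 0.389.

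Both low genes sit near the 3' end of the run of variable gamma exons, among genes with effects closer to 0. Read along the array from Pcdhga9, the authors' deposited table for day 8 listed total RNA effects of -0.02 for Pcdhga9, -0.71 for Pcdhgb6, -0.07 for Pcdhga10, 0.10 for Pcdhgb7, -0.29 for Pcdhga11 and 0.0046 for Pcdhga12. The C-type genes behind them stood at -0.10 for Pcdhgc3, -0.02 for Pcdhgc4 and 0.18 for Pcdhgc5 in the authors' deposited table. Across the gamma array, whose transcripts share their constant exons, the effects ran from -0.71 to 0.35 in the authors' deposited table.

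Over all members the shift was small and the scatter wide. The median total RNA effect at day 8 was 0.01 for the 46 members and -0.002 for all genes, computed from the authors' deposited table, and 29 of 46 (63.0%) against 47.2% were above 0. The standard deviation across genes was 0.151 for members and 0.0566 for all genes, computed from the authors' deposited table, with 0.207 in the gamma and 0.0840 in the beta array. Effects beyond 0.1 in either direction were listed for 15 of 46 members (32.6%), beside 6.33% of all genes, computed from the authors' deposited table. The number of reads behind these values is unknown.

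In beta genes the day 8 total RNA effects ranged from -0.12 to 0.19 in the authors' deposited table. The highest were Pcdhb11 at 0.19 and Pcdhb19 at 0.16, and the lowest Pcdhb8 at -0.12 and Pcdhb5 at -0.10, all from the authors' deposited table. In the alpha array Pcdhac2 stood at 0.09, Pcdha5 and Pcdha11 each at 0.01 and Pcdha4 at -0.001 in the authors' deposited table. None of these passed the threshold.

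**Figure D3:**
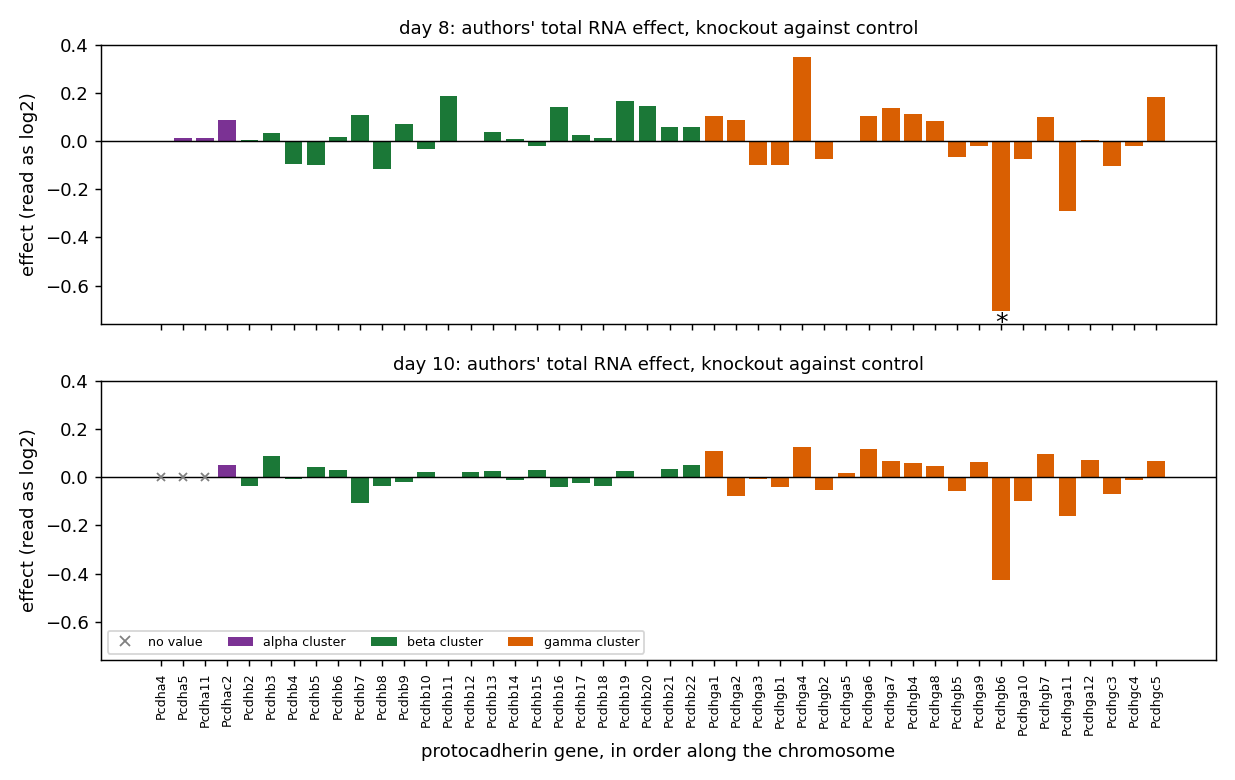
Total RNA effect of knockout against control (authors' values, read as log2) for each member with a value, in order along the chromosome, at day 8 (top) and day 10 (bottom); an asterisk marks an authors' adjusted p under 0.05 and a cross a gene with no value. Pcdhgb6 is the lowest bar at both ages, at -0.71 and -0.43, and Pcdhga11 the next, while most bars lie within 0.2 of the line.

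By day 10, in other animals, no member passed the threshold in total RNA, and neither did any gene of that table (0%). Pcdhgb6 was again the lowest member at -0.43, with an anota2seq adjusted p of 0.272, and stood at rank 30 from the lowest of 14846 genes in the authors' deposited table. Pcdhga11 was next at -0.16 and Pcdhga4 again the highest at 0.13, with anota2seq adjusted p-values of 0.623 and 0.314 in the authors' deposited table. The smallest adjusted p among members was 0.208, for Pcdhga6 at 0.12 in the authors' deposited table. Beta genes lay between -0.11, for Pcdhb7, and 0.09, for Pcdhb3, and Pcdhac2 stood at 0.05 in the authors' deposited table.

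The median of the 43 members at day 10 was 0.02 and their mean -0.001, of opposite sign, beside a median of 0.001 for all genes, computed from the authors' deposited table. Members above 0 numbered 23 of 43 (53.5%), beside 51.7% of all genes, computed from the authors' deposited table. The scatter was narrower than at day 8, with a standard deviation across genes of 0.0912 for members and 0.0666 for all genes, computed from the authors' deposited table. Effects beyond 0.1 in either direction were listed for 6 of 43 members (13.95%), beside 7.95% of all genes, computed from the authors' deposited table.

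The order of the members was partly shared between the ages. Across the 43 genes with both values, Pearson's r of day 8 and day 10 total RNA effects was 0.791 and Spearman's rho 0.493, computed from the authors' deposited table, beside a rho of 0.111 over 14607 genes. Genes are not independent replicates, members share exons and homologous sequence, and all genes of 1 age share their libraries. Without Pcdhgb6 and Pcdhga11 r was 0.459 and rho 0.415, computed from the authors' deposited table. The sign was the same at both ages for 29 of 43 members (67.4%), beside 51.6% of all genes, computed from the authors' deposited table.

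**Figure D4:**
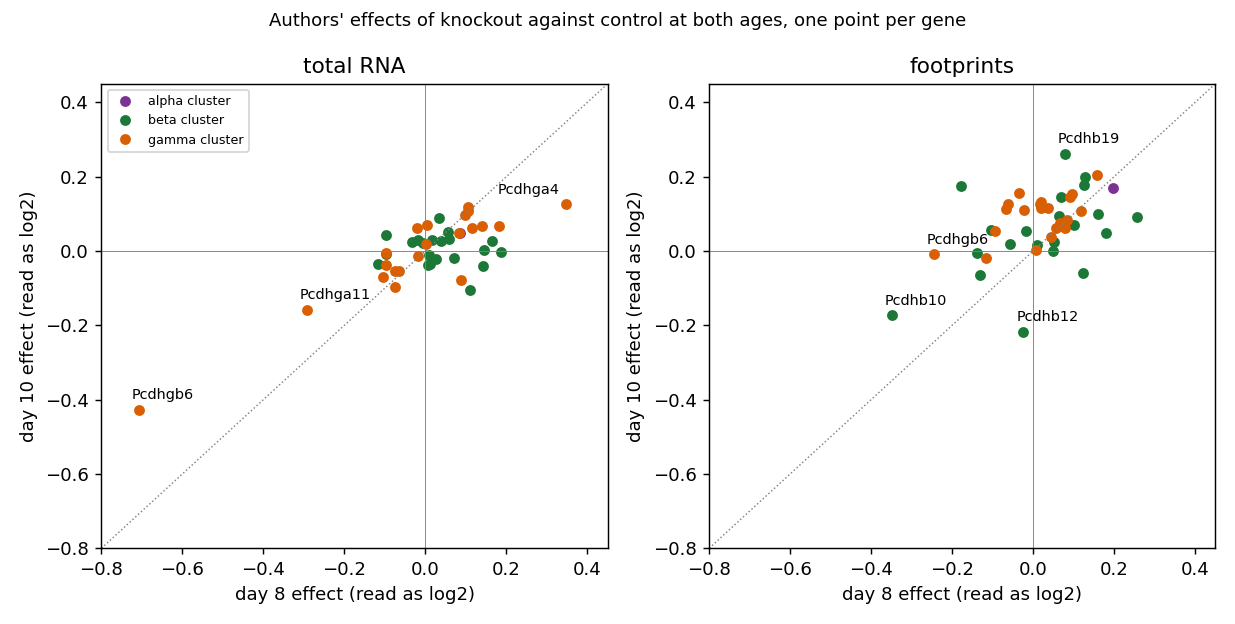
Authors' effects of knockout against control (read as log2) at day 8 (horizontal) and day 10 (vertical) for the 43 members with both values, for total RNA (left) and footprints (right); the dotted line marks equal effects. Pcdhgb6 stands apart at the lower left in total RNA, at -0.71 and -0.43. In footprints it stands at -0.25 at day 8, where only Pcdhb10 at -0.35 is lower, and at -0.01 at day 10.

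Ribosome footprints of the members did not pass the threshold at either age, nor did those of any gene (0% at day 8 and 0% at day 10 in the authors' deposited table). At day 8 the smallest adjusted p of a member was 0.980. Footprint effects then ran from -0.35 for Pcdhb10 to 0.26 for Pcdhb2, with a median of 0.04, computed from the authors' deposited table, and 31 of 46 (67.4%) were above 0, beside 51.5% of all genes. Pcdhgb6 stood at -0.25 in footprints, with an anota2seq adjusted p of 0.980 in the authors' deposited table.

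In the day 10 knockout 35 of 43 members (81.4%) had a footprint effect above 0, beside 49.1% of all genes, computed from the authors' deposited table. Among them were 19 of 21 gamma genes, with a median of 0.11, and 15 of 21 beta genes, with a median of 0.05, and the median of all members was 0.08 beside -0.002 for all genes, computed from the authors' deposited table. Not one of these was called, and the smallest anota2seq adjusted p was 0.819, for Pcdhb19 at 0.26 in the authors' deposited table. Pcdhb12 was the lowest at -0.22 and Pcdhgb6 stood at -0.01 in the authors' deposited table. All these effects come from the same libraries, and the genes share homologous sequence.

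Markers of testis cell types were listed beside them at day 10, with none called in footprints, as was so for all genes (0%). Of 6 spermatocyte markers, 5 were measured, none above 0 in footprints, with a median of -0.36, while 7 of 8 spermatogonial markers were above 0, with a median of 0.10, computed from the authors' deposited table. Sertoli markers, 5 of 11 above 0, had a median of -0.01, and those of peritubular and interstitial fibroblasts, 6 of 10 above 0, a median of 0.03, computed from the authors' deposited table. Their part in the members' footprint effects was not tested.

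**Figure D5:**
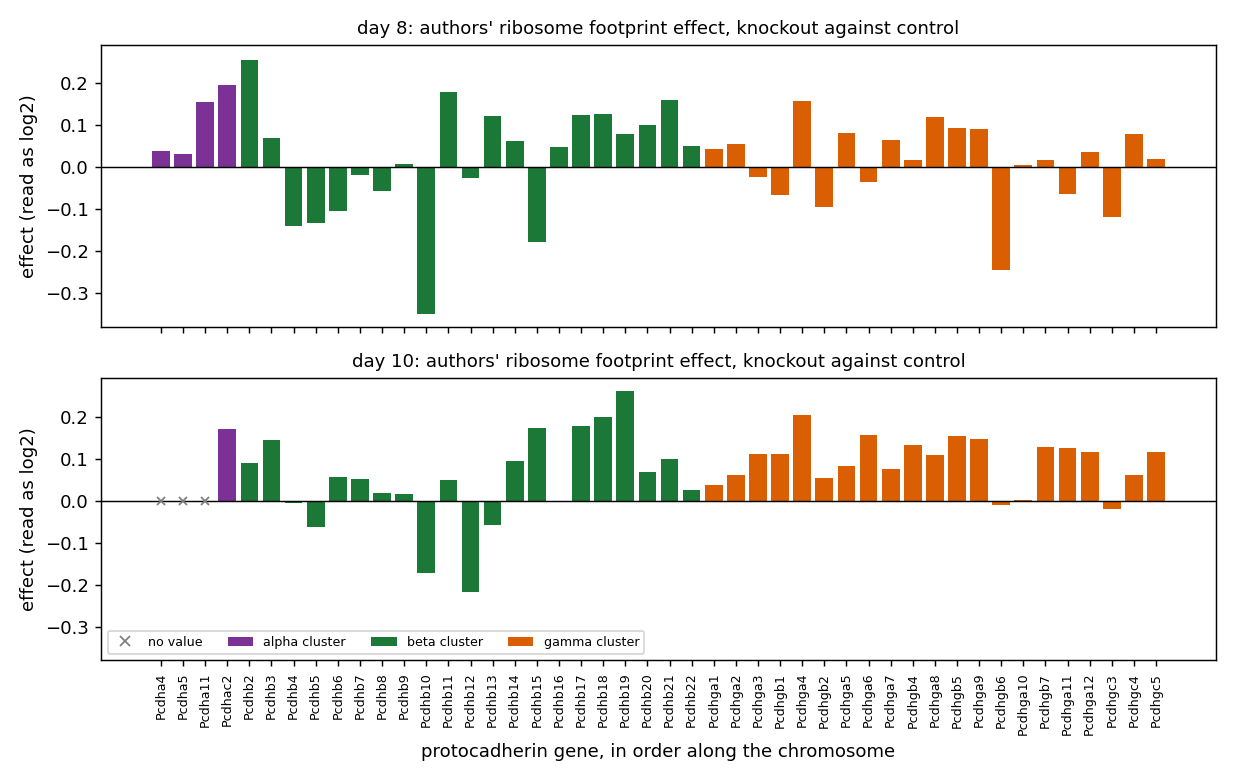
Ribosome footprint effect of knockout against control (authors' values, read as log2) for each member with a value, in order along the chromosome, at day 8 (top) and day 10 (bottom); a cross marks a gene with no value. At day 10, 35 of 43 bars lie above the line, and no gene passes an adjusted p of 0.05 at either age.

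Few members were called in the measures that combine RNA and footprints. In translation 0 members were called at day 8, beside 1.33% of all genes, with the smallest anota2seq adjusted p at 0.140 for Pcdhac2, whose effect was 0.58 in the authors' deposited table. At day 10 Pcdhb8 rose, the only member called, beside 2.68% of all genes, with a translation effect of 0.85 and an anota2seq adjusted p of 0.00995 in the authors' deposited table. Its footprint effect was only 0.02 and its total RNA effect -0.04 in the authors' deposited table, so the translation effect rests on the slope of the authors' regression, which works back to 23.3. The authors' deposited table puts Pcdhb8 in its background class.

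Buffering called 2 members at day 8, both lower, beside 1.49% of all genes: Pcdhgb6 at -0.37 with an anota2seq adjusted p of 0.00726 and Pcdhga11 at -0.30 with 0.0305 in the authors' deposited table. For day 10 it called Pcdhgb6 alone, at -0.41 with an anota2seq adjusted p of 0.0221, beside 1.37% of all genes in the authors' deposited table. Pcdhgb6 was thus the only member called at both ages, although total RNA passed at day 8 alone and whether the ages differ was not tested. Only Pcdhga11 at day 8 and Pcdhga6 at day 10 carry the class "buffering" in the authors' deposited table, which puts Pcdhgb6 in its background class at both ages.

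Genes beside the arrays showed no total RNA call, where 0.0528% of all genes were called at day 8 and 0% at day 10. The 35 genes within 1 Mb of the arrays had a median total RNA effect of -0.003 at day 8, with 0 called and a range from -0.11 to 0.24, computed from the authors' deposited table. Among them were Taf7 at 0.01, Diaph1 at 0.11 and Hdac3, a histone deacetylase, at -0.003 in the authors' deposited table. Of 26 measured genes of a list in and beside the locus, the authors' deposited table called Sra1 higher in day 8 buffering (0.24, anota2seq adjusted p 0.0468) and Hdac3 (0.52, 0.0413) and Wdr55 (0.68, 0.0247) higher in day 10 translation. Those measures called 1.49% and 2.68% of all genes. At day 10, 19 of 34 such genes were above 0 in footprints, with a median of 0.01, computed from the authors' deposited table. Beyond Ythdc2 on the same chromosome, the authors' deposited table listed Cdo1, a cysteine dioxygenase, at -0.71 and Lvrn, an aminopeptidase, at -0.68 among the lower calls of day 8 RNA. Inherited differences around the mutated gene and loss of Ythdc2 cannot be told apart in these tables for genes on its chromosome.

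Ctcf, Rad21, Smchd1 and Dnmt3b, known to control these arrays, were not called in total RNA or footprints, where few genes of any kind were. Over all genes 0.0528% were called in day 8 RNA and 0% in day 10 RNA and in footprints of both ages. In adults 0.236% of all features tested were called. A wider list held 16 genes of cohesin, CTCF and loop extrusion, not all of them known regulators of these arrays. All 16 were measured and 0 called in adults (range -0.18 to 0.29). Nor were any called in total RNA of day 8 (-0.18 to 0.08) or day 10 (-0.63 to 0.27), computed from the authors' deposited table. In total RNA Ctcf stood at 0.02 and 0.11 at the 2 ages and Rad21, a cohesin subunit, at -0.01 and 0.04 in the authors' deposited table. Smchd1, which represses clustered protocadherins in mouse cells, stood at 0.12 and 0.03, and the DNA methyltransferase Dnmt3b at -0.03 and 0.06 in the authors' deposited table. Nipbl and Ctcfl were called higher in day 10 translation, beside 2.68% of all genes, in the authors' deposited table. Pds5b was called lower in day 10 buffering, beside 1.37% of all genes.

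Among 17 genes of DNA methylation and heterochromatin, 0 were called in adults, beside 0.236% of all features tested. Of the 16 measured in juveniles, 0 were called in total RNA and footprints, computed from the authors' deposited table. Tet3 alone was called, higher in day 10 buffering, beside 1.37% of all genes. None of 14 signalling partners of clustered protocadherins, such as the focal adhesion kinases, and none of 9 proteases and cofactors that cut them was called in adults or in any juvenile measure of the authors' deposited table. Over all genes the juvenile measures called from 0% to 2.68%. Non-clustered protocadherins had 9 measured members in adults, 0 called, with log2 fold changes from -0.88 to 0.35. In juveniles their median was -0.01 in day 8 and -0.06 in day 10 total RNA, and 4 of 10 were above 0 in day 10 footprints, computed from the authors' deposited table. Only Pcdh9 was called among them, lower in day 8 translation, beside 1.33% of all genes, in the authors' deposited table.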

How the data were processed

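Testis RNA and footprint libraries were made after Trizol extraction with ribosomal depletion or poly(A) selection, as the labels' protocols state without assigning either to a library. Per the submitters' processing notes, STAR, DESeq2 and the mm10 build were used. Their versions, the program that counted reads and the annotation: not given in the sources used here. The authors' deposited adult table holds raw counts of 6 libraries beside p-values and log2 fold changes. The deposited juvenile tables hold log2-scale effects (base not stated) and adjusted p-values of anota2seq 1.14.0, per the file headers and description; the description names knockout first. The adult columns carry a genotype but no animal, which kept age out of the model. The labels number animals, so libraries of a group were taken as separate animals.

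Adult counts of the whole table were filtered with filterByExpr (minimum count 10), TMM-scaled, and compared in edgeR 4.0.16 (quasi-likelihood test, 2-sided, Benjamini-Hochberg over 22446 features, threshold 0.05) in R 4.3.3. CPM are TMM-scaled. DESeq2 1.42.0 was the other test. The biological coefficient of variation was 6.77%. No juvenile test was made; medians and counts describe the authors' values. Library pairs of a group differed by more than counting error (chi-square over degrees of freedom at least 1.79).

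The members and lists were chosen with earlier results of these data known. Named members were those past 0.05 in any comparison, the 4 most read per array, the C-type genes, and the 2 highest and 2 lowest total RNA effects per array and age; Ythdc2, known regulators and neighbouring genes were fixed by name, and any other gene was named with its values in view. Positions came from RefSeq's GRCm38.p6 annotation, matched by symbol for 57 of 57. No sequence of these genes is printed. Alternatives were other scalings, filters, tests and thresholds, leaving out each library, and a replicate block added after seeing the data. Python 3.11.15, pandas 2.3.3 and matplotlib 3.10.9 were used.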

Additional observations from a re-analysis of the deposited data

How the results depend on the processing

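Among the 25 adult members tested, 0 were called under every scaling, filter, threshold and test tried, and 0 to 1 when 1 library was left out: without the first heterozygous library Pcdhgc5 was called (log2 fold change -0.37, edgeR adjusted p 0.0471), in a fit that called 1917 features in all. Other libraries left out gave 3 to 15 features. With a replicate block on the column numbers, 0 members and 355 features were called, beside 53 features without it. Deviations of same-numbered libraries correlated at 0.27, -0.02 and 0.18. Whether same-numbered libraries share an age, litter or batch cannot be told from the column names and was not tested. DESeq2 called 218 features and edgeR without a filter 595. Small fold changes that were not called changed sign when 1 library was left out: Pcdhb3 ran from -0.078 to 0.18, Pcdhb20 from -0.15 to 0.027, Pcdhga12 from -0.099 to 0.033, Pcdhgb6 from -0.73 to 0.10, Pcdha1 from -0.072 to 0.057, Pcdha2 from -0.034 to 0.057, Pcdhb17 from -0.27 to 0.44 and Pcdhgb1 from -0.29 to 0.24. The alpha array's log2 ratio became -0.02 without the second heterozygous library.

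In the authors' deposited tables the calls moved with the adjusted p allowed. At 0.1 there were 2 members in day 8 total RNA, 2 in day 10 translation and 2 in day 10 buffering. At 0.15 these were 2, 2 and 3, with 1 in day 8 translation and 3, in place of 2, in day 8 buffering. The shares of all genes at these looser thresholds were not computed. Whether members gained more calls than other genes therefore cannot be told. Medians of total RNA and footprints kept their direction in the beta array alone and without the called members. In translation and buffering the beta array did not always follow. The day 8 translation median was 0.04 for all members and -0.01 for beta genes, computed from the authors' deposited table. The day 10 buffering median was -0.007 for all members and 0.01 for beta genes, computed from the authors' deposited table. Depth limits the adult comparison of members with few reads, and no depth is known for the juvenile tables.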
